A study of Homo sapiens with 9 samples.

Results

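GPR97 and GPR56 are 2 genes of the adhesion G protein-coupled receptor family that lie next to each other on chromosome 16, and they were 2 of the 25680 gene symbols counted here. GPR97 (current symbol ADGRG3, RefSeq NM_170776) was chosen by its higher level after ASXL2 knockdown in earlier results of the same libraries, so its difference from the control is given as a description without a test. GPR56 (ADGRG1, NM_001145771) was taken for its position beside GPR97, and its differences were tested. Messenger RNA had been sequenced from SKNO-1 cells, a human line established from acute myeloid leukaemia with the AML1-ETO (RUNX1-RUNX1T1) fusion and kept in culture with GM-CSF. The 9 samples formed 3 groups of 3, each holding samples numbered 1, 13 and 25: the control group EV, and the groups SH2 and SH3, each with a different shRNA against ASXL2, a chromatin regulator that works with the BAP1 deubiquitinase. The labels do not explain EV or what the numbers stand for, while the study describes its control as cells treated with a control shRNA. All 9 samples are of 1 cell line with the same fusion, and the extraction text attached to them speaks of sorted bone marrow cells. The study calls the samples biological triplicates but does not describe separate cultures, so the p-values measure the spread between these samples, which may be technical.

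Adhesion receptors have a long extracellular part that is usually cut from the membrane part during maturation, and the new end of the membrane part can act as a tethered agonist. GPR56 signals through G proteins of the G12/G13 class to RhoA, binds collagen III, and marks blood stem cells and cytotoxic lymphocytes. GPR97 is known from granulocytes, where it forms a complex with the neutrophil protein CD177 and membrane-bound proteinase 3 (PRTN3).

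On the hg19 (GRCh37) build, both genes lie on the plus strand of chromosome 16, GPR56 from 57644564 to 57699492 and GPR97 from 57702189 to 57723290. The annotated end of GPR56 lies 2.70 kb before the start of GPR97. The deposited tables hold 1 row for GPR97 and 11 rows for GPR56, which are RefSeq transcripts with different starts and exons. In each sample, 9 of the 11 rows differed by 0 to 3 counts, while the shorter transcript NM_001290142 held 85.1% to 93.2% of the highest row. Counts per transcript therefore did not separate the starts of GPR56. RefSeq start windows (GRCh38.p14 coordinates, 250 bases before to 50 after a start) matched 1 of these 2 genes, GPR56, with 3 windows. Windows 1 and 3 are shown because they are the ones that held any searched motif, which is marked in capitals. The plus strand is printed 5′ to 3′.
GPR56 window 1, chr16:57619488-57619787: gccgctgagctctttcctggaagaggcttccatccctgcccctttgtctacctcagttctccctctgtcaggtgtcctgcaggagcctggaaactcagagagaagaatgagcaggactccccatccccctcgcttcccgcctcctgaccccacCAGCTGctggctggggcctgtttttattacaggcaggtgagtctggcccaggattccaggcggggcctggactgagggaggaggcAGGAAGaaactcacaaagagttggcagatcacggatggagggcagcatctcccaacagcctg
GPR56 window 3, chr16:57628380-57628679: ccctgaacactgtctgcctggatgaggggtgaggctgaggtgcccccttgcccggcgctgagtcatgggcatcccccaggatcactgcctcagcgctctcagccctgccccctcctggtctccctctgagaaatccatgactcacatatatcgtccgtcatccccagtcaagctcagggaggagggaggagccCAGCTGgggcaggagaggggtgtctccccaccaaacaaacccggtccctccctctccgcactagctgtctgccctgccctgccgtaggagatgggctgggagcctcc
The letters searched, on both strands, were TGTGGT for RUNX factors, AGATAA for GATA factors, AGGAAG for ETS factors and CAGCTG for the E-box. Window 1 held 1 ETS and 1 E-box match, window 3 held 1 E-box match, and window 2 (57619796 to 57620095) held none. Of 35116 RefSeq windows of this length, 33.6% held the ETS letters, 17.9% those of the E-box, 13.1% those of RUNX and 10.3% those of GATA. A match is only a description of the letters and does not show that a factor binds there.

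The libraries held 27714431 to 35406063 counts with 1 row per gene, so that 3 counts, the limit a count of 0 allows, equal 0.0847 to 0.108 CPM, the count scaled to the library's normalized total. Molecular identifiers were not used, so these limits and the intervals of single counts take in counting error alone. ASXL2 itself stood at 67.9, 67.9 and 74.7 CPM in the EV samples numbered 1, 13 and 25. It stood at 30.4, 36.2 and 36.2 CPM in SH2 and at 26.9, 29.1 and 41.1 CPM in SH3, below every EV sample. In a fit that blocks on the sample number, called the replicate block, it fell by 1.04 (SE 0.10) on the log2 scale in SH2 and by 1.13 (SE 0.10) in SH3 (edgeR adjusted p = 0.00469 and 0.00407), and without the block its adjusted p was 0.808 and 0.612. The myeloid markers CD33, KIT, MPO, CD38 and RUNX1T1 were all expressed, whereas CD34 reached at most 10 counts. Of 9 markers of other cells, 4 were at 0 in all samples, among them CD3E, MS4A1 and HBB, and the list summed to 3.37 to 5.41 CPM over the 9 samples. The markers CD79A, at 54 to 95 counts (1.67 to 3.23 CPM), and CD8A, at 33 to 59 counts, were present in every sample.

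GPR97 was a low gene that stood higher in every knockdown sample than in any control. The EV samples numbered 1, 13 and 25 held 90, 57 and 46 GPR97 counts, or 2.48, 1.94 and 1.53 CPM. The SH2 samples held 130, 112 and 95 counts, or 4.35, 3.51 and 3.29 CPM. The SH3 samples held 144, 110 and 98 counts, or 4.90, 3.40 and 3.57 CPM. The lowest knockdown sample (3.29 CPM) was thus above the highest control (2.48 CPM), and the groups did not overlap. Means were 1.98 ± 0.472 CPM (SD, n = 3) in EV, 3.72 ± 0.560 in SH2 and 3.96 ± 0.825 in SH3. The counts are small: the 95% Poisson interval of the lowest count ran from 33.7 to 61.4, and that of the highest from 121 to 170.

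Against the EV sample of the same number, GPR97 was 1.76, 1.81 and 2.15 times as high in SH2 and 1.98, 1.75 and 2.33 times as high in SH3. The fitted log2 fold change was 0.90 (SE 0.24) for SH2 and 0.99 (SE 0.24) for SH3, and 0.91 and 1.00 (SE 0.16 each) with the replicate block. Averaged over both shRNAs, GPR97 had the 35th highest log2 fold change (0.95, SE 0.14) of the 14199 genes tested, in the fit with the block. Of all genes, 2.16% had all 6 knockdown samples above all 3 EV samples, and 11.6% had all 6 above the EV sample of the same number. Since GPR97 was selected on this difference, its place among them is not a finding. Both shRNA contrasts share the EV samples. In bulk RNA, a change in the RNA per cell and a change in the number of cells that express the gene cannot be told apart.

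The difference between the shRNAs had no part in the choice of GPR97 and was tested. SH3 was above SH2 in 2 of the 3 same-numbered pairs. The log2 difference was 0.09 (SE 0.24, edgeR adjusted p = 0.998), and with the block 0.08 (SE 0.15, edgeR adjusted p = 0.838), with a 95% interval of -0.21 to 0.37. A difference of the size seen against EV thus lay outside this interval, while smaller differences in either direction did not.

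GPR56 overlapped with the controls in SH2. Its counts were 224, 151 and 119 in the EV samples, or 6.16, 5.14 and 3.97 CPM. SH2 held 186, 154 and 101 counts, or 6.23, 4.83 and 3.50 CPM, a range that overlaps EV almost completely. SH3 held 316, 207 and 142 counts, or 10.8, 6.39 and 5.17 CPM, of which 2 samples lay above the highest control. Means were 5.09 ± 1.10 CPM (SD, n = 3) in EV, 4.85 ± 1.36 in SH2 and 7.44 ± 2.94 in SH3.

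**Figure D1:**
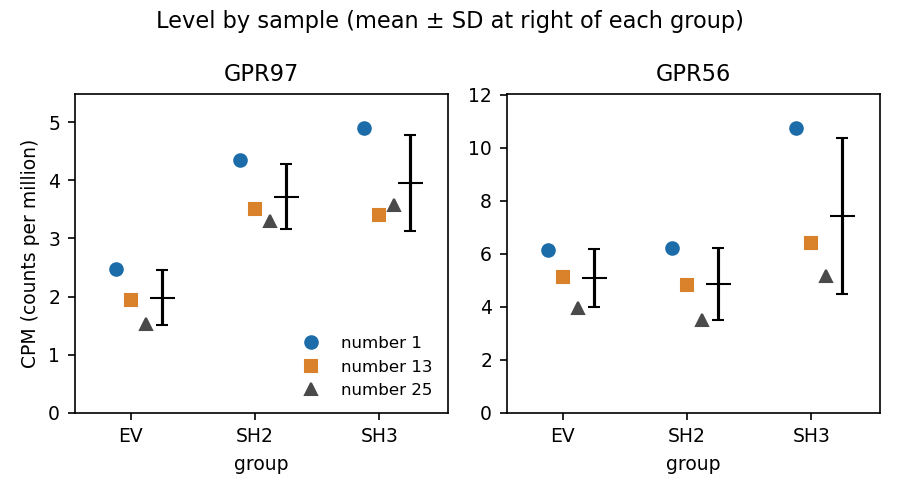
CPM of GPR97 and GPR56 in each of the 9 samples by group, with the mean and SD (n = 3) beside the points and the sample number as the symbol; each panel has its own vertical axis from 0. All 6 knockdown samples of GPR97 lie above the 3 EV samples, while SH2 overlaps EV for GPR56.

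Relative to the EV sample of the same number, GPR56 stood at 1.01, 0.940 and 0.882 in SH2 and at 1.75, 1.24 and 1.30 in SH3. Neither shRNA changed GPR56 past the threshold. For SH2 the log2 fold change was -0.07 (SE 0.31, edgeR adjusted p = 0.998), and with the block -0.08 (SE 0.14, edgeR adjusted p = 0.788), with a 95% interval of -0.35 to 0.19. For SH3 it was 0.55 (SE 0.31, edgeR adjusted p = 0.971), and with the block 0.51 (SE 0.13, edgeR adjusted p = 0.108), with a 95% interval of 0.25 to 0.78. The SH3 sample numbered 1 carried much of this value: without it the log2 fold change was 0.18 (SE 0.27), or 0.37 (SE 0.14) with the block. For the mean of both shRNAs it was 0.24 (SE 0.27) without and 0.22 (SE 0.12) with the block, at edgeR adjusted p = 0.954 and 0.321. Over both shRNAs, the exact two-sided permutation test on the mean log2 CPM gave a difference of 0.21 with p = 0.560 over all 84 splits of 6 against 3 samples, and p = 0.444 over the 27 splits that keep 1 control of each number.

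GPR56 was higher in SH3 than in the SH2 sample of the same number in all 3 pairs, as were 16.3% of all genes. The log2 difference was 0.62 (SE 0.31, edgeR adjusted p = 0.998), and with the block 0.59 (SE 0.13, edgeR adjusted p = 0.138), and did not pass the threshold in either fit. Without the block, 0% of the 14199 genes passed in each of the contrasts SH2 against EV, SH3 against EV, their mean against EV, and SH3 against SH2. In the same order 762, 723, 942 and 293 genes had an unadjusted p under 0.05 in edgeR, and the DESeq2 Wald test called 22, 26, 56 and 11. With the block, edgeR called 0.282%, 0.416%, 1.10% and 0.106% of genes.

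Levels of different genes were compared per kilobase of transcript. In EV, GPR97 stood at 0.760 CPM per kb and GPR56 at 1.20, where 14.5% and 18.5% of 13714 genes with a length lay lower. The ratio of GPR97 to GPR56 per kb was 0.656, 0.616 and 0.631 in the EV samples, a narrow range. It was 1.14, 1.19 and 1.53 in SH2 and 0.744, 0.867 and 1.13 in SH3. GPR97 was therefore the lower of the pair in all 3 control samples and the higher one in all 3 SH2 samples, and in SH3 it was higher in 1 sample only. The ratio rests on the selected gene and was not tested.

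**Figure D2:**
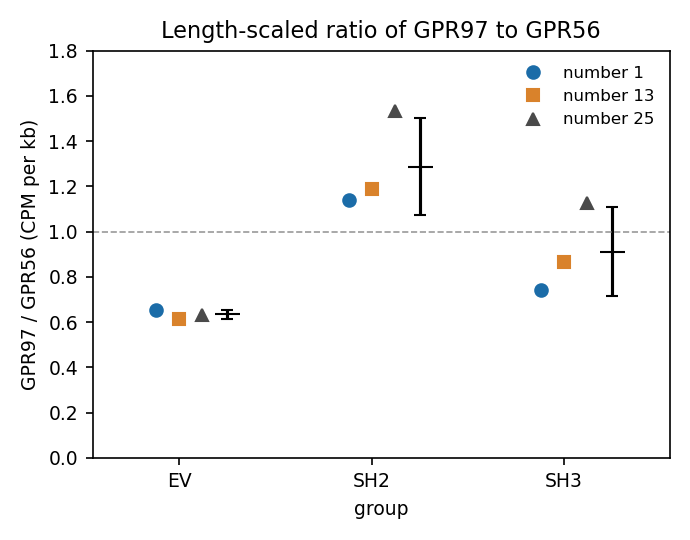
Ratio of GPR97 to GPR56, both as CPM per kilobase of transcript, in each sample by group, with the mean and SD (n = 3); the dashed line marks equal levels. The EV samples lie between 0.616 and 0.656, all SH2 samples lie above 1, and the SH3 samples lie between 0.744 and 1.13.

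Both receptors also differed with the sample number, which played no part in choosing them. In every group, the sample numbered 1 had the highest GPR97 and GPR56 levels, and the sample numbered 25 had the lowest GPR56 level. Number 1 exceeded the mean of numbers 13 and 25 by 0.45 (SE 0.13) on the log2 scale for GPR97 and by 0.66 (SE 0.11) for GPR56, with edgeR adjusted p-values of 0.0159 and 0.00162. Among all genes 46.3% passed the threshold in this contrast, so the calls set neither receptor apart. The GPR97 call was lost, with a log2 difference of 0.43, 0.40 and 0.42, when the samples EV 1, EV 25 or SH3 1 were left out (edgeR adjusted p = 0.0570, 0.0538 and 0.0527). All 3 samples numbered 1 lay above the other 6 for 14.4% of genes but not for GPR97 or GPR56, whose group ranges crossed. Number 25 against number 13, a contrast in which 5.87% of genes passed, gave -0.10 (SE 0.16) for GPR97 and -0.38 (SE 0.14) for GPR56, with edgeR adjusted p-values of 0.739 and 0.131.

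The genes around GPR97 were examined from CCL22 upstream to CSNK2A2 downstream, 20 genes without GPR97. Of these, 15 passed the filter on low counts and 0 passed the threshold for the mean of both shRNAs in either fit. Over all genes 0% passed in this contrast without the block and 1.10% with it. The median log2 fold change of the 15 genes with the block was 0.08, against 0.01 over all genes. The gene next downstream of GPR97 is CCDC135, which encodes a protein of the dynein regulatory complex of cilia and flagella and begins 5.41 kb after the end of GPR97. It held 8, 10 and 8 counts in EV, 14, 11 and 15 in SH2, and 18, 15 and 12 in SH3. All 6 knockdown samples lay above all 3 EV samples in CPM, as for 2.16% of all genes. The counts are few, and the log2 fold change of 0.79 (SE 0.31) did not pass (edgeR adjusted p = 0.195). CCDC135 passed the filter only with knockdown samples, where it is higher, so its place follows in part from the filter. POLR2C, a subunit of RNA polymerase II and the most abundant neighbour per kilobase (median 57.2 CPM per kb), gave 0.18 (SE 0.08), and it rose when the library SH3 1 was left out of the fit with the block (0.22, edgeR adjusted p = 0.0363). In that setting 1755 of 14291 genes, or 12.3%, passed for the mean of both shRNAs, against 1.10% with all 9 libraries, and leaving out any of the other 8 libraries instead gave 2 to 90 genes. By number, GPR56, DOK4, CCDC102A and MMP15 were higher in number 1 (0.50 to 0.66), while CIAPIN1, POLR2C, KIFC3 and USB1 were among the lower ones (-0.86 to -0.43). That made 4 higher and 5 lower of 15 genes, in a contrast that 46.3% of all genes passed.

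**Figure D3:**
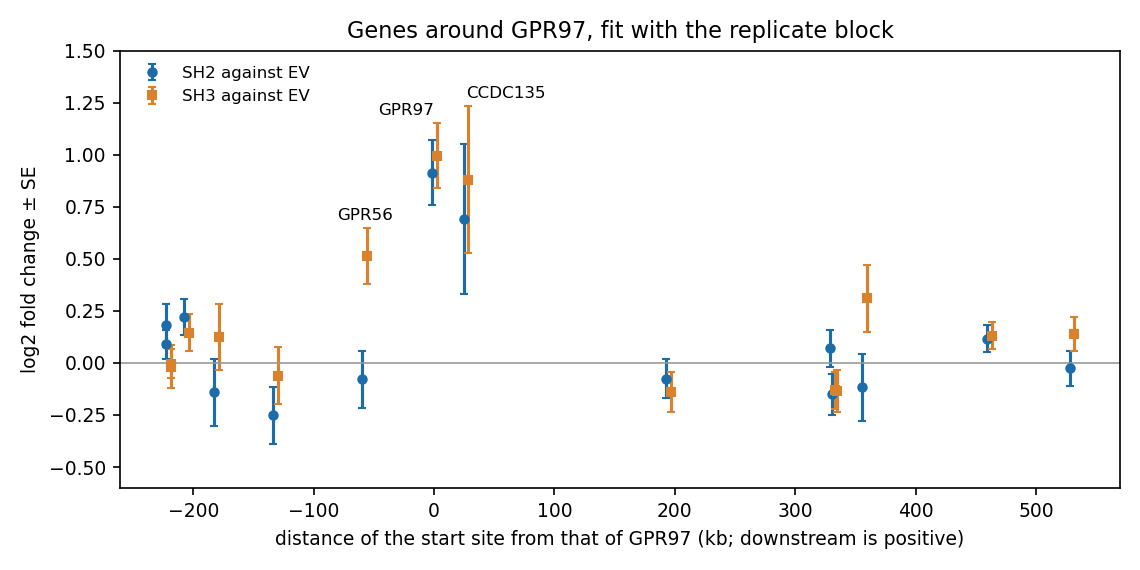
Log2 fold change with SE in the fit with the replicate block, for SH2 against EV (circles) and SH3 against EV (squares), against the distance of each gene's start site from that of GPR97 in kb, for the genes past the filter that are reported here. GPR97 lies at 0.91 and 1.00, CCDC135 has wide errors, and GPR56 lies at -0.08 in SH2 and at 0.51 in SH3.

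Within the adhesion receptor family, 31 of the 32 listed genes other than GPR97 were in the files and 19 passed the filter, while 7 had no count in any sample. For each shRNA and for their mean, 0 of the 19 passed the threshold in either fit. Over all genes 0% passed without the block, and 0.282% for SH2, 0.416% for SH3 and 1.10% for the mean with it. The log2 fold changes of the mean contrast with the block ran from -0.51 to 0.80 with a median of -0.07, and 7 were positive and 12 negative. Per kilobase the most abundant were GPR125, which takes part in planar cell polarity (median 19.3 CPM per kb), and CD97, a leukocyte receptor for CD55 (18.6 CPM per kb). They stood at -0.06 (SE 0.08) and -0.07 (SE 0.08).

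The largest positive value belonged to EMR3, a receptor of mature myeloid cells, which held 33, 12 and 23 counts in EV, 51, 38 and 40 in SH2, and 32, 21 and 36 in SH3. Its log2 fold change was 0.80 (SE 0.22, edgeR adjusted p = 0.0953). EMR1, at no more than 27 counts, gave 0.70 (SE 0.28, edgeR adjusted p = 0.201). It held 18, 6 and 10 counts in EV and passed the filter only with the knockdown samples, where it is higher. At the other end stood GPR124, a receptor known from brain endothelium, at -0.51 (SE 0.17, edgeR adjusted p = 0.140). Its level was 24.7 ± 4.40 CPM in EV, 18.4 ± 0.260 in SH2 and 16.7 ± 6.82 in SH3 (SD, n = 3). When the library SH3 1 was left out of the fit with the block, GPR124 fell by 0.69 and CELSR2, a planar polarity receptor, by 0.40, and EMR3 rose by 0.85 (edgeR adjusted p = 0.000691, 0.0165 and 0.0358). These were 3 of the 19 genes, in a setting where 12.3% of all genes passed.

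Number 1 differed from the other numbers for 11 of the 19 family genes (edgeR with the block), in a contrast that 46.3% of all genes passed. GPR56, BAI1, BAI2, CD97, EMR1 and GPR126 were higher, with BAI2, a brain receptor, at 1.47 (SE 0.31). The lower ones included CELSR1, CELSR3, GPR64 and GPR125, with GPR64, a receptor of the epididymis, at -1.26 (SE 0.37) from at most 14 counts. GPR64 held 6, 6 and 3 counts in the EV, SH2 and SH3 samples numbered 1. It passed the filter only with samples numbered 13 and 25, where it is higher, so its place follows in part from the filter. Number 25 stood above number 13 for BAI1 (0.54, SE 0.12) and below it for EMR2 (-0.83, SE 0.11), in a contrast that 5.87% of all genes passed.

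**Figure D4:**
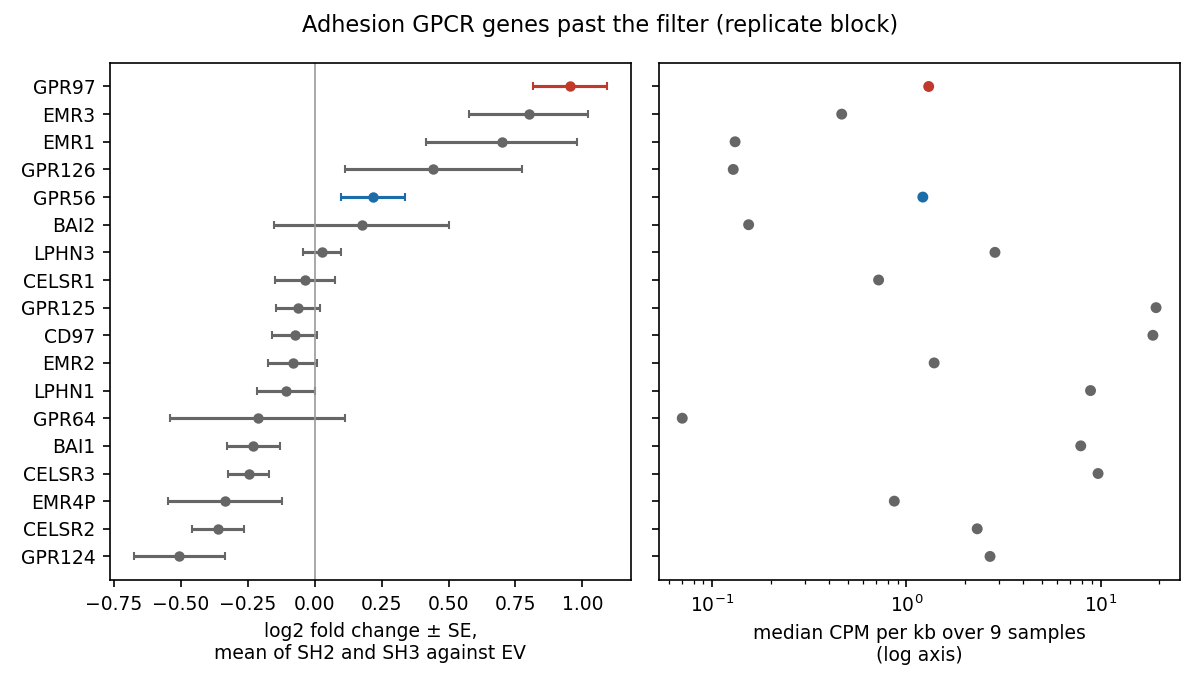
Left, log2 fold change with SE for the mean of SH2 and SH3 against EV (fit with the replicate block) of the adhesion receptor genes past the filter that are reported here; right, their median CPM per kb over the 9 samples on a log axis. GPR97 (red) lies at 0.95, GPR56 (blue) at 0.22, and the rest between -0.51 and 0.80.

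Of 10 ligands and partners of these receptors, 6 passed the filter and 0 passed the threshold in the contrasts with EV in either fit. Over all genes 0% passed in these contrasts without the block, and 0.282% to 1.10% with it. COL3A1, the collagen III ligand of GPR56, reached at most 3 counts, and CD177, the partner of GPR97, at most 1 count. PRTN3, the protease that GPR97 meets on neutrophils, was abundant at 124 ± 18.2 CPM in EV, 123 ± 26.4 in SH2 and 112 ± 23.5 in SH3 (SD, n = 3), and its log2 fold change was -0.09 (SE 0.08). CD81, a tetraspanin that associates with GPR56, was the most abundant of the list per kilobase (median 155 CPM per kb) and gave 0.22 (SE 0.06, edgeR adjusted p = 0.101). It passed when the library SH3 1 was left out (0.24, edgeR adjusted p = 0.0201), a setting in which 12.3% of all genes passed. The largest values were those of CD9, another tetraspanin (0.89, SE 0.46, at most 25 counts), and F2RL1, the protease-activated receptor PAR2 (-0.34, SE 0.14). CD9 held 6 counts in each EV sample and passed the filter only through knockdown samples where it is higher, so its place follows in part from the filter. By number, TGM2 and F2RL1 were higher in number 1 (0.58 and 0.43), and PRTN3 was higher in number 25 than in number 13 (0.50). These were 2 and 1 of the 6 genes, in contrasts that 46.3% and 5.87% of all genes passed.

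The list named G protein and RhoA branch had 12 of 14 genes past the filter. Besides genes of the G12/G13 class and RhoA, it held other G protein subunits and arrestins. RHOA, the GTPase itself, and GNAI2, an inhibitory G protein subunit, were the most abundant (median 429 and 291 CPM per kb) and gave 0.05 (SE 0.07) each. Without the block 0 genes passed for the mean of both shRNAs. With it 0 rose and 1 fell: ARHGEF12, an exchange factor that activates RhoA, fell by 0.31 (SE 0.06, edgeR adjusted p = 0.0416), in a contrast that 1.10% of all genes passed. Leaving out any 1 library other than SH3 1 ended this call (edgeR adjusted p = 0.0524 to 0.282). ARHGEF12 also did not pass with a length and GC correction in the fit with the block, where 0.153% of all genes passed. By shRNA, with the block, ARHGEF12 fell in SH3 by 0.45 (SE 0.07, edgeR adjusted p = 0.0300), where 0.416% of all genes passed. In SH2 it gave -0.17 (SE 0.07, edgeR adjusted p = 0.208). The SH3 call was lost when any EV or SH2 library or SH3 25 was left out (edgeR adjusted p = 0.0626 to 0.167). It stood at 81.0, 108 and 125 CPM in EV, at 66.3, 101 and 114 in SH2 and at 54.1, 81.8 and 96.8 in SH3, so that the groups overlapped but each knockdown sample was below its same-numbered control. ARHGEF11, its close relative, stood at -0.41 (SE 0.09, edgeR adjusted p = 0.0653), and ROCK2, a kinase activated by RhoA, at -0.32 (SE 0.10, edgeR adjusted p = 0.116). When SH3 1 was left out of the fit with the block, 4 genes passed and all fell: ARHGEF11, ARHGEF12, and the RhoA-dependent kinases ROCK1 and ROCK2. In that setting 12.3% of all genes passed. GNAO1 had at most 2 counts, and GNAI1 had none. Number 1 was lower for ARHGEF12 (-0.64), ARHGEF11 (-0.46), GNA12 (-0.34), ROCK2 (-0.34) and GNAI3 (-0.21), and number 25 was below number 13 for GNA12 (-0.33). These were 5 and 1 of the 12 genes, in contrasts that 46.3% and 5.87% of all genes passed.

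Of 8 transcription factors known to bind the stem-cell enhancers of GPR56, 7 passed the filter and MECOM had no count. For the mean of both shRNAs 0 passed in either fit, where 0% of all genes passed without the block and 1.10% with it. TAL1 fell in SH3 with the block, by 0.56 (SE 0.08, edgeR adjusted p = 0.0300), from 48.1, 59.6 and 54.3 CPM in EV to 35.6, 38.4 and 35.7 CPM. With the block 0.416% of all genes passed in this contrast, and the TAL1 call was lost when any EV or SH2 library or SH3 25 was left out (edgeR adjusted p = 0.0530 to 0.117). It gave -0.07 (SE 0.08, edgeR adjusted p = 0.663) in SH2, and the difference of SH3 from SH2 did not pass (-0.49, SE 0.08, edgeR adjusted p = 0.0744). LYL1 and LMO2 were the most abundant (median 151 and 69.2 CPM per kb) and gave 0.02 (SE 0.06) and 0.07 (SE 0.06). RUNX1 gave -0.20 (SE 0.07) and GATA2 gave -0.23 (SE 0.07). Without SH3 1, TAL1, GATA2 and RUNX1 passed and fell by 0.33, 0.29 and 0.23 with the block, where 12.3% of all genes passed. FLI1, ERG and LMO2 were higher in number 1 (0.61, 0.28 and 0.27), and ERG was lower in number 25 than in number 13 (-0.39). These were 3 and 1 of the 7 genes, in contrasts that 46.3% and 5.87% of all genes passed.

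Granulocyte markers were read because GPR97 is known from granulocytes. Of 14 genes, 8 passed the filter, and LTF, MMP8 and CEACAM8 had no count in any sample. The list summed to 8050 to 10161 CPM in EV, 7188 to 11174 CPM in SH2 and 7916 to 10396 CPM in SH3, nearly all of it MPO. Without the block 0 passed for the mean of both shRNAs. With it 0 rose and 1 fell: CSF3R, the receptor for G-CSF, fell by 0.43 (SE 0.08, edgeR adjusted p = 0.0385), in a contrast that 1.10% of all genes passed. Leaving out any EV or SH2 library ended this call (edgeR adjusted p = 0.0585 to 0.177), and leaving out an SH3 library did not. CSF3R also did not pass with a length and GC correction in the fit with the block, where 0.153% of all genes passed. It stood at 282, 219 and 174 CPM in EV, 234, 141 and 124 in SH2, and 207, 152 and 147 in SH3. MPO and ELANE, granule enzymes and the most abundant per kilobase, gave 0.05 (SE 0.15) and -0.05 (SE 0.09), and FPR1, the formyl peptide receptor, gave 0.42 (SE 0.43). FPR1 held 11, 10 and 3 counts in EV and passed the filter only with SH3 samples, where it reached 19. The granule protease CTSG passed, of the alternatives run, only without SH3 1 in the fit with the block (0.49, edgeR adjusted p = 0.0201), a setting in which 12.3% of all genes passed. Number 1 was higher for CSF3R (0.61), AZU1 (0.37) and CXCR2 (0.29) and lower for ELANE (-0.27), and number 25 was above number 13 for PRTN3 (0.50) and ELANE (0.46). Of the 8 genes, 3 were thus higher and 1 lower in number 1, where 46.3% of all genes passed. Number 25 was higher for 2 of them, where 5.87% of all genes passed.

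The genes most like GPR97 over the 9 samples, by Pearson correlation of log2 CPM, were MPZL2, a cell adhesion molecule (r = 0.97), TMEM176B, a membrane protein of myeloid cells (r = 0.95), ISCA2 and COA5, mitochondrial assembly factors (r = 0.94 each), and FAM47E (r = 0.94). The 3 genes most like GPR56 were HCST, the adaptor DAP10 of activating receptors (r = 0.99), the transcription factor partner IRF2BP2 (r = 0.99) and the cholesterol carrier NPC2 (r = 0.99). GPR97 and GPR56 correlated with each other at r = 0.56, which placed GPR56 at position 1678 in the order of likeness to GPR97. These values are descriptions over 9 samples that share groups and numbers, so genes that follow either will correlate. MPZL2 averaged 0.580 CPM in EV, 1.16 in SH2 and 1.32 in SH3, and TMEM176B averaged 19.2, 29.8 and 30.6 CPM. HCST averaged 30.9 CPM in EV, 30.1 in SH2 and 44.9 in SH3.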

How the data were processed

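Poly(A) RNA libraries (TruSeq, unstranded per the study's methods) of 9 SKNO-1 samples were used. The deposited values are whole-number counts per RefSeq transcript on hg19, not normalized; the submitters' processing notes name STAR, featureCounts and DESeq2, and the role of each is not given in the sources used here. The study's own comparison used Cuffdiff. Of 48104 rows, the row with the highest total was kept for each of 25680 symbols, since isoform rows repeat shared reads; a shift between isoforms can move such a count.

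Samples were grouped by the labels. Tests used edgeR 4.0.16 in R 4.3.3 (quasi-likelihood F test, TMM, filterByExpr requiring at least 10 counts and a total of at least 15, leaving 14199 genes, Benjamini-Hochberg threshold 0.05) with all 9 samples and group as the term, leaving 6 residual degrees of freedom. Log2 CPM used a prior count of 2; 95% intervals of log2 fold changes are normal ones from the SE. Deviations from the group means correlated in all 9 same-numbered pairs (lowest r 0.40), so the fit with the number as a block (4 residual degrees of freedom) is given beside it; number contrasts come from that fit. The biological coefficient of variation was 0.192 without and 0.0875 with the block. Both fits were tested on simulated counts.

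Positions and transcript lengths came from GENCODE for GRCh37, and start windows from RefSeq. USB1 and CFAP20 were looked up by older symbols and matched to these current ones in the files, and GPR144 was not analysed here. Members and gene lists were chosen with earlier results of these data known. Named genes were the members, ASXL2, every list gene past the threshold in any contrast, the 2 most abundant (per kilobase) and the 2 with the largest change of each list, and the 5 most alike to each member. Some genes that this rule names are not reported here. Alternatives were other size factors, DESeq2 1.42.0, no filter, the mean of all rows, only the groups compared, only numbers 13 and 25, a length and GC correction with the block, and leaving out each sample; the block with DESeq2, with numbers 13 and 25, and with each sample left out were added after seeing the data.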

Additional observations from a re-analysis of the deposited data

How the results depend on the processing

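GPR97 kept its direction against EV under every alternative run: the log2 fold change ranged from 0.75 to 1.10 for SH2, from 0.80 to 1.19 for SH3 and from 0.79 to 1.14 for their mean when 1 sample was left out. The GPR97 difference of SH3 from SH2 ranged from -0.10 (without SH3 1) to 0.22 and never passed. For GPR97 in number 1, leaving out 1 sample gave 0.40 to 0.50; the call was also lost in DESeq2 (0.45, adjusted p = 0.0640) and without a group term (0.44, adjusted p = 0.258). GPR56 in SH2 ranged from -0.29 to 0.11, positive without EV 1 (0.09) or SH2 25 (0.11), and GPR56 in number 25 against 13 from -0.48 to -0.32, passing without SH3 1 (-0.37, edgeR adjusted p = 0.0432). In edgeR with all 9 samples, the replicate block changed no call of GPR56. Whether GPR56 passed in SH3 against EV or SH3 against SH2 under the other settings is not given here.

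For the mean of both shRNAs, calls rose from 0 in the lists. With the block they were 1 for the G protein and RhoA branch and 1 for the granulocyte markers. With DESeq2 and the block they were 2 for the family, 1 for the ligands and partners, 4 for the G protein branch, 1 for the stem-cell factors and 1 for the granulocyte markers. With numbers 13 and 25 and the block they were 1, 0, 2, 2 and 1 in the same order. With the block and 1 sample left out they ranged from 0 to 3, 0 to 1, 0 to 4, 0 to 3 and 0 to 2, and from 0 to 1 for the chromosome 16 neighbours; the highest counts came without SH3 1. The cause was not tested. The counts over all genes moved with the same settings: 156 passed with the block, 370 with numbers 13 and 25 and the block, and 1755 without SH3 1. Without EV 1, 13 or 25 they were 2, 4 and 2, without SH2 1, 13 or 25 they were 2, 25 and 2, and without SH3 13 or 25 they were 90 and 88. The DESeq2 Wald test with the block called 369 for SH2, 474 for SH3, 629 for their mean and 155 for SH3 against SH2. With the block and a length and GC correction, edgeR called 21 genes for the mean of both shRNAs, and none of them was in these lists. Depth limits GPR97, at 46 to 144 counts per sample.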
